A study of Homo sapiens with 6 samples.

Results

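The genes described here are 10 calcium and cation channel genes of LNCaP cells, chosen by symbol from a read-count table of 23354 genes. They are 7 channels of the transient receptor potential (TRP) family (TRPM2, TRPM4, TRPM7, TRPM8, TRPV2, TRPV6 and TRPC1) and 3 genes of store-operated calcium entry (STIM1, ORAI1 and ORAI2). LNCaP is an androgen-sensitive human prostate cancer line. In 3 libraries the cells had received dihydrotestosterone (DHT), a natural androgen, at 1 nM plus 3 µL/mL of white button mushroom (WBM) extract, and in the other 3 they had received 1 nM DHT alone, both for 48 h. Every group therefore carried the androgen, no library without DHT was analysed here, and the labels name no vehicle for the extract. The labels do not say whether the replicates were separate cultures, so the spread that the p-values rest on may be only technical.

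TRP channels are tetrameric cation channels of the cell surface and of internal membranes. TRPM8 is the cold- and menthol-activated member, known in prostate epithelium as a gene that depends on androgen. TRPV6 is a calcium-selective channel of epithelia that absorb calcium. Store-operated entry works differently: STIM proteins of the endoplasmic reticulum membrane sense the calcium inside it. When the store empties they gather where the reticulum lies close to the cell surface and open channels there, built from ORAI subunits.

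With the extract, TRPM8 and TRPV6 were lower, while STIM1, ORAI1, ORAI2 and the rare channel gene TRPC1 were higher. TRPM4 was also lower, but its groups overlapped and its call held in only 7 of 14 other settings. TRPM2 and TRPM7 did not pass the test, and TRPV2 was too rare to test. Thus 9 of the 10 genes were tested, of which 4 rose and 3 fell, in the quasi-likelihood test of edgeR, with p-values adjusted by Benjamini-Hochberg over all 13466 tested genes and a threshold of 0.05. In the same fit 58.2% of all tested genes passed, 29.2% higher and 29.0% lower. This even split, 3928 higher and 3909 lower, depended on the scaling. Upper-quartile factors called 4426 genes higher against 3403 lower, and scaling by library totals alone called 4675 against 3200. A share of 7 in 9 genes has to be read against that background, and their median log2 fold change of 0.02 lay beside 0.003 for all tested genes. The libraries held 19127357 to 21490953 counts each.

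Promoter sequences are shown for 3 of the genes that changed, TRPV6 (lower) and STIM1 and ORAI2 (higher). TRPV6 is a single example and does not stand for the lower genes. TRPM4, also called lower, had a window that is described below without its sequence. They are the 250 bases before the start of transcription in RefSeq's table for GRCh38.p14, written 5′ to 3′ on the gene's own strand. Capitals mark androgen response half-sites (AGAACA or its reverse complement TGTTCT) and GC boxes (GGGCGG or its reverse complement CCGCCC), and neighbouring GC boxes may overlap. The windows are chr7:142885746-142885995 on the minus strand for TRPV6, chr11:3855453-3855702 on the plus strand for STIM1 and chr7:102433325-102433574 on the plus strand for ORAI2.
TRPV6: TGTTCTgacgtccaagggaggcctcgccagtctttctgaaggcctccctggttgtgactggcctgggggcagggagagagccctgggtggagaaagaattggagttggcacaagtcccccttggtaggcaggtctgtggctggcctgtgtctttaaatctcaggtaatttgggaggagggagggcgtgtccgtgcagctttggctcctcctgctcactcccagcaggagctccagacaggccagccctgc
STIM1: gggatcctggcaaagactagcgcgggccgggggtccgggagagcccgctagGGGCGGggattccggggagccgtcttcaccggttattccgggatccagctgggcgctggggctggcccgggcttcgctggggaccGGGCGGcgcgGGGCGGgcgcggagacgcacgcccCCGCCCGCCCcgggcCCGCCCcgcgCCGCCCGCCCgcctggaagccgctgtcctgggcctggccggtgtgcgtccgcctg
ORAI2: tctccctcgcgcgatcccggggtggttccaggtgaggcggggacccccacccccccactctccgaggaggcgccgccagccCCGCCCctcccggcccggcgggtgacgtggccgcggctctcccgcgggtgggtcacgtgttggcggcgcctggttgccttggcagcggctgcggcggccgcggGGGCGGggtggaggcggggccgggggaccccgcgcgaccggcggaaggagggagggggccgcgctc

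The TRPV6 window held 1 androgen response half-site, at its far end, and no GC box, whereas the STIM1 and ORAI2 windows held 8 and 2 GC boxes and no half-site. The TRPV6 window held 4 CpG dinucleotides and the STIM1 and ORAI2 windows 35 each, beside 38 for TRPM7, which did not pass the test, 16 for TRPM4 and a median of 11 over all windows. Of 35116 windows of this length, 12.4% held the half-site, 42.6% a GC box and 10.7% the letters TATAAA on either strand. TRPM4, which was called lower like TRPV6, differed from it in having 3 GC boxes and no half-site. TRPM7 had 1 GC box and no half-site. None of these 5 windows held TATAAA. The table's windows for TRPM8, TRPM2 and TRPC1 began 62776, 75509 and 10158 bases inside the gene as RefSeq annotates it, and they were not used. The STIM1 window lies 1099 bases inside the outermost annotated start. A match of letters is a description of the sequence and shows no binding.

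TRPM8, on chromosome 2 (234826043 to 234928166, plus strand; gene positions are those of the deposited table, on hg19), was lower with the extract. Its level was 70.9, 70.5 and 71.1 normalised CPM (counts scaled to a common library size) in DHT+WBM, against 87.5, 88.9 and 90.3 CPM in DHT. All 3 DHT+WBM libraries lay below all 3 DHT libraries, as was the case in one direction or the other for 62.2% of all tested genes. The means were 70.8 ± 0.275 CPM in DHT+WBM and 88.9 ± 1.36 CPM in DHT (SD, n = 3 each), with -0.33 ± 0.04 (SE) as the log2 fold change (edgeR adjusted p = 4.02e-08), or 1.26-fold lower. Over 14 other settings the change ranged between -0.34 and -0.28 and passed the test in all of them. In bulk RNA, a lower level in each cell and fewer cells with the transcript cannot be told apart.

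Of 4 androgen-induced genes taken for orientation, 3 were lower like TRPM8, by more than it, and 1 was higher. KLK3, which encodes prostate-specific antigen, had a log2 fold change of -1.45, the related kallikrein gene KLK2 -1.24 and the membrane protease gene TMPRSS2 -0.79, each ± 0.04 (SE). FKBP5, a co-chaperone gene that androgen also induces, was higher at 0.12 ± 0.04 (edgeR adjusted p = 0.0153), and was named after its values were seen. Its groups overlapped, since DHT replicate 3, at 917 CPM, lay above DHT+WBM replicates 2 and 3, at 906 and 907 CPM. Of all tested genes, 67.1% changed by less than TRPM8 in either direction. The difference between TRPM8 and these genes was not tested.

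TRPV6, on chromosome 7 (142568960 to 142583490, minus strand), was also lower. It stood at 15.8, 13.7 and 16.6 CPM in DHT+WBM, against 20.5, 18.5 and 21.2 CPM in DHT, with no overlap between the groups. The means were 15.4 ± 1.48 CPM in DHT+WBM and 20.1 ± 1.41 CPM in DHT (SD, n = 3 each), and the log2 fold change was -0.38 ± 0.08 (edgeR adjusted p = 6.32e-05). TRPV6 and TRPM8 were compared within each library as the log2 ratio of their counts, which does not depend on scaling. That ratio averaged -2.20 ± 0.14 in DHT+WBM and -2.15 ± 0.099 in DHT (SD, n = 3 each), a difference of -0.06 (two-sided exact permutation p = 0.50). With 3 libraries against 3, such a test cannot go below 0.10.

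TRPM4, on chromosome 19 (49661016 to 49715098, plus strand), is a channel that calcium opens and that carries sodium and potassium. Its level was 30.5, 31.4 and 33.0 CPM in DHT+WBM, against 38.0, 31.7 and 35.3 CPM in DHT. Replicate 3 of DHT+WBM lay above replicate 2 of DHT, so the groups overlapped. The log2 fold change was -0.15 ± 0.06 (edgeR adjusted p = 0.0421), and this call was lost in 7 of 14 other settings. Without DHT replicate 1 the log2 fold change was -0.08 (edgeR adjusted p = 0.293), without DHT replicate 3 it was -0.14 (edgeR adjusted p = 0.0686), and without DHT+WBM replicates 1 or 2 it was -0.13 (edgeR adjusted p = 0.142) or -0.15 (edgeR adjusted p = 0.0742). DESeq2 gave -0.15 with an adjusted p of 0.106.

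TRPM2 and TRPM7 did not pass the test. TRPM2, on chromosome 21 (45770046 to 45862964, plus strand), is a channel opened by ADP-ribose and known in oxidative stress, and it averaged 43.4 ± 3.90 CPM in DHT+WBM and 43.5 ± 3.38 CPM in DHT (SD, n = 3 each). The 95% interval of its log2 fold change was -0.12 to 0.12. TRPM7, on chromosome 15 (50849352 to 50979012, minus strand), joins a magnesium- and zinc-permeable channel to a protein kinase. It was 123, 126 and 120 CPM in DHT+WBM, against 124, 124 and 116 CPM in DHT. Its interval was -0.07 to 0.10, so a change of the size seen in TRPM8 or TRPV6 lay outside it. The log2 ratio of TRPM4 to TRPM7 was -1.96 ± 0.086 in DHT+WBM and -1.80 ± 0.15 in DHT (SD, n = 3 each), a difference of -0.16 (two-sided exact permutation p = 0.20).

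**Figure D1:**
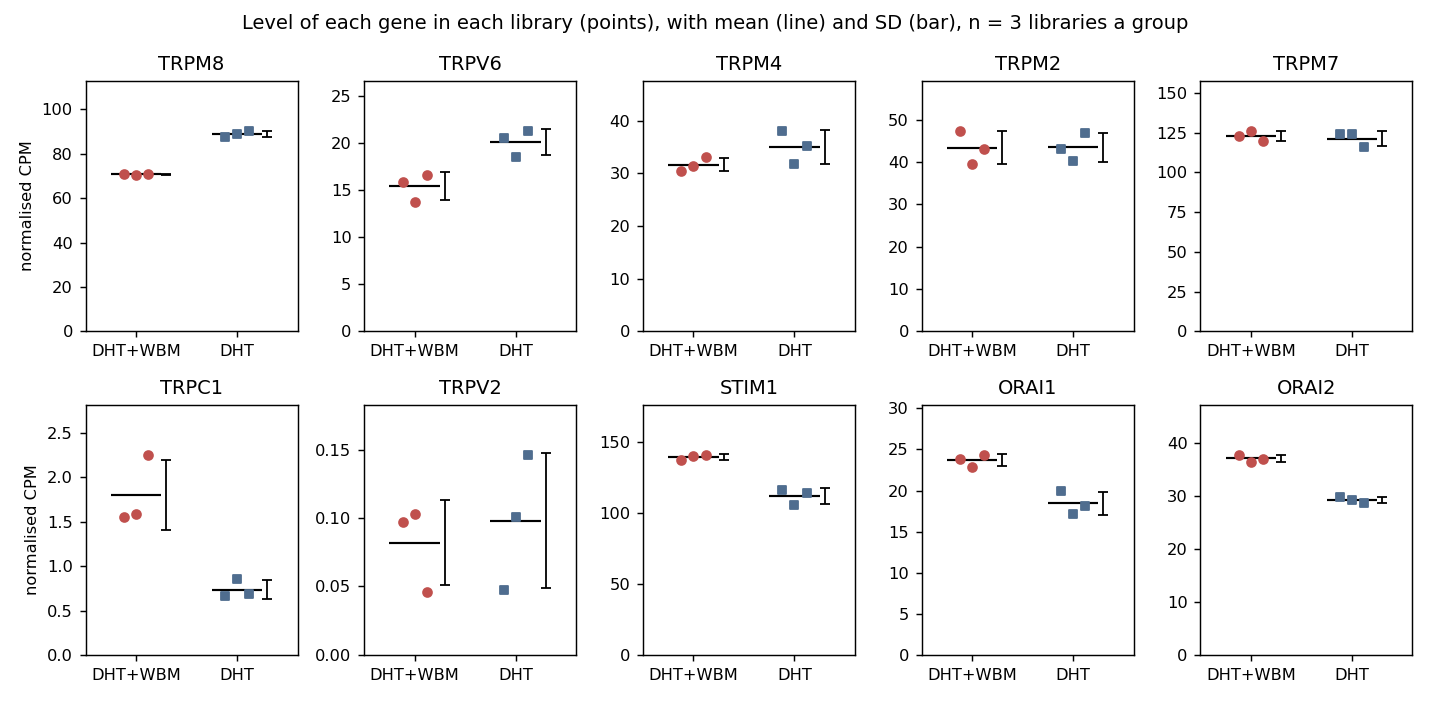
Normalised CPM (vertical axes, each from 0) of the 10 genes in each library, DHT+WBM as circles and DHT as squares, with the mean as a line and the SD as a bar (n = 3 each). The groups are apart for TRPM8, TRPV6, TRPC1, STIM1, ORAI1 and ORAI2 and overlap for TRPM2, TRPM4, TRPM7 and TRPV2.

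TRPC1 showed the largest fold change of the 9 tested genes, at a low level. TRPC1, on chromosome 3 (142443266 to 142526729, plus strand), encodes a canonical TRP subunit that assembles with other TRPC proteins and has been studied as a partner of STIM1. It had 32, 31 and 49 counts in DHT+WBM, against 14, 17 and 14 counts in DHT. In normalised units these were 1.56, 1.59 and 2.25 CPM in DHT+WBM against 0.668, 0.855 and 0.682 CPM in DHT. Every DHT+WBM library was above every DHT library, and replicate 3 of DHT+WBM was the highest. The log2 fold change was 1.30 ± 0.25 (edgeR adjusted p = 3.49e-05), or 2.46-fold higher, with a 95% interval of 0.79 to 1.81. Leaving out 1 library at a time gave 1.09 to 1.42, and 97.4% of all tested genes changed by less.

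TRPV2, on chromosome 17 (16318856 to 16340317, plus strand), had 2, 2 and 1 counts in DHT+WBM and 1, 2 and 3 counts in DHT. No library exceeded 3 counts, while the low-count filter asked for about 10 in 3 libraries, so the gene was not tested and no fold is given.

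The sensor gene STIM1 and the channel genes ORAI1 and ORAI2 of store-operated entry rose, with log2 fold changes of 0.32, 0.36 and 0.34. STIM1, on chromosome 11 (3876933 to 4114440, plus strand), stood at 138, 140 and 141 CPM in DHT+WBM, against 116, 106 and 114 CPM in DHT. All DHT+WBM libraries were above all DHT libraries, which were the more spread of the 2 groups. The means were 139.5 ± 1.81 CPM in DHT+WBM and 112 ± 5.38 CPM in DHT (SD, n = 3 each), with 0.32 ± 0.04 (SE) as the log2 fold change (edgeR adjusted p = 3.96e-08).

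ORAI1, on chromosome 12 (122064455 to 122079946, plus strand), encodes the main pore subunit of the calcium release-activated channel. Its level was 23.8, 22.9 and 24.3 CPM in DHT+WBM, against 20.0, 17.2 and 18.1 CPM in DHT, with no overlap. The log2 fold change was 0.36 ± 0.07 (edgeR adjusted p = 2.83e-05). ORAI2, on chromosome 7 (102073977 to 102097268, plus strand), encodes a related subunit. It had 37.8, 36.5 and 37.1 CPM in DHT+WBM and 29.8, 29.3 and 28.7 CPM in DHT, again apart, with 0.34 ± 0.06 (SE) as the log2 fold change (edgeR adjusted p = 2.43e-06). Its span shares 602 bases with ALKBH4 on the opposite strand, and ALKBH4 itself had a log2 fold change of 0.08 ± 0.08, short of the test (edgeR adjusted p = 0.389).

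The remaining family members, ORAI3 and STIM2, were examined beside them. ORAI3, another pore subunit that can join ORAI1 in channels of prostate cancer cells, was higher, at 16.4 ± 1.88 CPM in DHT+WBM against 12.6 ± 1.71 CPM in DHT (SD, n = 3 each). Its log2 fold change was 0.38 ± 0.09 (edgeR adjusted p = 0.000485). STIM2, which responds to smaller losses of stored calcium than STIM1, averaged 25.95 ± 1.43 CPM in DHT+WBM and 28.5 ± 2.6 CPM in DHT (SD, n = 3 each), a log2 fold change of -0.14 ± 0.07 that did not pass the test (edgeR adjusted p = 0.0741). It did pass in 4 of 14 other settings, with the same sign in all 14.

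Within the STIM pair the log2 ratio of STIM2 to STIM1 was -2.48, -2.34 and -2.46 in DHT+WBM, against -1.90, -1.89 and -2.14 in DHT. The groups did not overlap and differed by -0.45 (two-sided exact permutation p = 0.10, the smallest that 3 against 3 allows, and 0.40 after Benjamini-Hochberg adjustment over the 4 ratios tested). Scaled by gene length, STIM1 made up 86.3 ± 0.59% of the summed STIM level in DHT+WBM and 82.1 ± 1.4% in DHT (SD, n = 3 each). Among the ORAI genes the log2 ratio of ORAI2 to ORAI1 averaged 0.65 ± 0.037 in DHT+WBM and 0.67 ± 0.099 in DHT, a difference of -0.02 (two-sided exact permutation p = 0.90). ORAI1 held 59.1 ± 2.6% of the summed ORAI level per length in DHT+WBM and 59.3 ± 0.61% in DHT (SD, n = 3 each). The 3 ORAI genes together came to 77.2 ± 1.75 CPM in DHT+WBM and 60.3 ± 3.44 CPM in DHT.

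**Figure D2:**
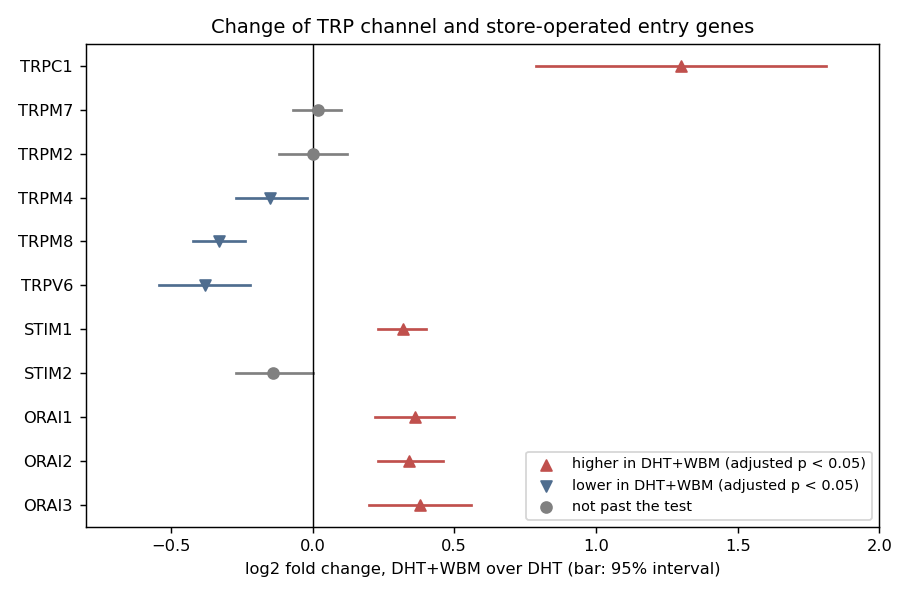
Log2 fold change of DHT+WBM over DHT (horizontal axis) with its 95% interval for the 9 tested genes and for STIM2 and ORAI3, from edgeR. STIM1 and the 3 ORAI genes lie between 0.32 and 0.38, TRPM8 at -0.33 and TRPV6 at -0.38, and TRPC1 at 1.30 has the widest interval.

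Levels of different genes were compared as CPM per kilobase of the gene length in the deposited table, which depends on the annotated length. In DHT+WBM, STIM1 was highest at 30.5 CPM per kilobase, followed by ORAI1 at 15.8, TRPM8 at 11.4, TRPM7 at 10.8, TRPM4 at 7.36, TRPM2 at 6.52, TRPV6 at 4.49 and ORAI2 at 3.43 CPM per kilobase. In DHT the order had TRPM8, at 14.4 CPM per kilobase, above ORAI1, at 12.3 CPM per kilobase. The libraries of ORAI1 spanned 15.3 to 16.2 CPM per kilobase in DHT+WBM and 11.4 to 13.3 in DHT, and those of TRPM8 spanned 11.4 to 11.5 in DHT+WBM and 14.1 to 14.6 in DHT, so the ranges of these genes were apart in both groups and their order was exchanged. TRPM4 and TRPM2 overlapped in DHT+WBM, and TRPM2 and TRPV6 overlapped in DHT. TRPC1, at 0.433 CPM per kilobase in DHT+WBM and 0.177 in DHT, and TRPV2, at 0.0293 in DHT+WBM and 0.0351 in DHT, were far below the rest.

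**Figure D3:**
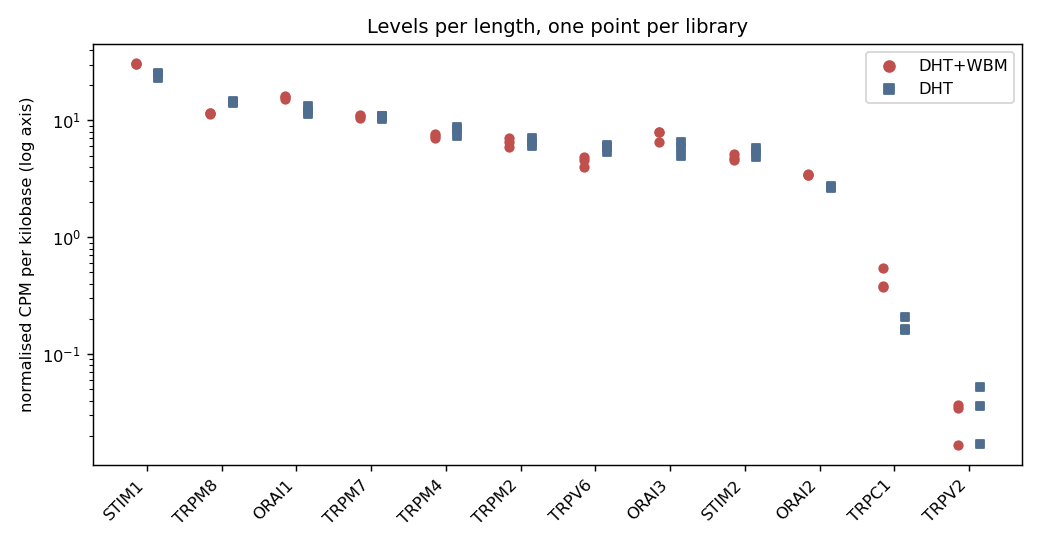
Normalised CPM per kilobase (log axis) of the 10 genes with ORAI3 and STIM2, 1 point per library, DHT+WBM as circles on the left and DHT as squares on the right of each gene, ordered by the mean in DHT. STIM1 is highest in both groups and TRPV2 lowest.

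Other TRP genes were mostly at or near 0 counts in these cells. Of 20 further members of the superfamily, 13 were below the low-count filter, with at most 6 counts in any library. Of the 7 tested, 0 passed edgeR's adjusted threshold, beside 58.2% of all tested genes. Among the 7, 2 had an unadjusted p under 0.05, namely TRPV3 and TRPV1 with log2 fold changes of -0.23 and -0.46. DESeq2 and limma-voom also called 0, but 8 of 14 other settings called 1 or 2, among them the fits without DHT+WBM replicate 1 and without DHT replicate 1, 2 or 3. These channels, which sense heat and chemical irritants, were named after their values were seen. The most abundant of the 7 was PKD2, the polycystin-2 gene, at 30.9 ± 0.784 CPM in DHT+WBM and 28.5 ± 1.44 CPM in DHT.

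Regulators and partners of these channels split in both directions, with 5 of 14 tested genes higher, 5 lower and a median log2 fold change of -0.02. Over all tested genes 29.2% were higher and 29% lower, and the counts of this and the following lists have to be read against that. CRACR2B, which encodes a relative of the calcium-binding ORAI1 regulator CRACR2A, was lower. It stood at 11.3 ± 0.649 CPM in DHT+WBM against 23.1 ± 3.08 CPM in DHT (log2 fold change -1.03 ± 0.08, edgeR adjusted p = 3.26e-13). CRACR2A itself was also lower, at -0.73 ± 0.25 (edgeR adjusted p = 0.0134), with only 14 to 33 counts per library. TCAF1 and TCAF2 encode proteins that bind TRPM8 and alter its activity. TCAF1 fell to 32.7 ± 0.670 CPM in DHT+WBM, against 47.4 ± 0.481 CPM in DHT, a log2 fold change of -0.53 ± 0.05. TCAF2 moved the other way, at 6.82 ± 0.712 CPM in DHT+WBM against 3.82 ± 0.653 CPM in DHT, and its log2 fold change was 0.83 ± 0.13. They are similar neighbouring genes, so the split of reads between them is uncertain.

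Of 12 tested genes listed for calcium release from the store, 5 were higher and 1 lower. The shares over all tested genes were 29.2% higher and 29% lower. This list mixes release channels with phospholipase C genes, and its median log2 fold change was 0.01. The lower count was 0 without DHT+WBM replicate 2 or with library totals and 2 without DHT+WBM replicate 1. ITPR1, an inositol trisphosphate receptor that empties the store which STIM1 senses, had 1151, 1009 and 1262 counts in DHT+WBM, against 605, 525 and 519 counts in DHT. Its level was 55.3 ± 3.22 CPM in DHT+WBM and 26.9 ± 1.83 CPM in DHT (SD, n = 3 each), with 1.04 ± 0.06 (SE) as the log2 fold change (edgeR adjusted p = 3.79e-18). RYR2, a ryanodine receptor release channel, and PLCD3, a phospholipase C, were higher with log2 fold changes of 0.51 and 0.62. The other inositol trisphosphate receptor genes, ITPR2 and ITPR3, were also higher, by 0.44 and 0.16 (edgeR adjusted p = 3.82e-07 and 0.00278). The 1 lower gene of the list was TMCO1, at -0.12 (edgeR adjusted p = 0.00951). ITPR2, ITPR3 and TMCO1 were named after their values were seen. Of 6 tested calcium pumps, 1 was higher and 1 lower, and the lower count was 2 without a filter, without DHT+WBM replicate 1, 2 or 3, or without DHT replicate 2. ATP2A2, the pump SERCA2 that refills the store, fell to 882 ± 31.8 CPM in DHT+WBM, against 1067 ± 62.5 CPM in DHT (log2 fold change -0.27 ± 0.04, edgeR adjusted p = 3.54e-07). ATP2B1, a plasma membrane pump, was higher by 0.10 with overlapping groups, a call that was lost in 6 of 14 other settings. Among these were the fits without any 1 of the 3 DHT+WBM libraries, and without DHT replicate 3 it was 0.04 (edgeR adjusted p = 0.475).

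Genes listed for calcium binding inside the endoplasmic reticulum were mostly lower, with 10 of 12 lower and a median log2 fold change of -0.33. The 2 not past the test were SDF4 and NUCB1, at -0.01 and 0. The list is not confined to proteins that reside only in that compartment. Of all tested genes 29% were lower and 29.2% higher. HSP90B1, PDIA4 and HSPA5, chaperone and disulfide isomerase genes of the endoplasmic reticulum, had log2 fold changes of -0.74, -0.73 and -0.71. Among 12 mitochondrial uptake genes, 3 were higher and 3 lower. The lower count was 1 without DHT+WBM replicate 2, without DHT replicate 3 or with upper-quartile factors, and 0 with library totals. The uptake regulator MICU2 and the exchanger SLC8B1 were higher, by 0.22 and 0.35, and the pore gene MCU did not pass the test at -0.03.

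Downstream of calcium entry, calmodulin, calcineurin and NFAT genes counted 9 higher and 4 lower among 18 tested, and their median log2 fold change was 0.13. The shares over all tested genes were 29.2% higher and 29% lower. CAMK2D, a calmodulin-dependent kinase gene, rose by 0.50, while PPP3CA, a catalytic subunit gene of calcineurin, fell by 0.30 on the log2 scale. The other catalytic subunit genes, PPP3CB and PPP3CC, were higher, by 0.12 and 0.17 (edgeR adjusted p = 0.033 and 0.0283). The groups of PPP3CC overlapped, with DHT replicate 3 at 27.83 CPM and DHT+WBM replicate 1 at 27.77 CPM. Voltage-gated channel subunits had 7 of 18 members tested, of which CACNB3 was higher at 0.35 and CACNA2D2 and CACNB2 were lower at -0.62 and -0.56. DESeq2 called neither of the lower pair, with adjusted p of 0.0652 and 0.109. The CACNA2D2 call was also lost without DHT+WBM replicate 1 (log2 fold change -0.54, edgeR adjusted p = 0.0517). The CACNB2 call was lost without DHT+WBM replicate 2, DHT replicate 1 or DHT replicate 2 (log2 fold change -0.42, -0.48 and -0.52, edgeR adjusted p = 0.135, 0.0909 and 0.0656). Of 2 tested sodium-calcium exchangers SLC24A1 was lower, at -0.37. VDR, the vitamin D receptor, which drives TRPV6 in intestine, was higher at 63.7 ± 0.746 CPM in DHT+WBM against 42.3 ± 0.410 CPM in DHT (log2 fold change 0.59 ± 0.05 in SE, edgeR adjusted p = 3.14e-13), and CYP24A1, a classical vitamin D target, had at most 5 counts in any library.

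**Figure D4:**
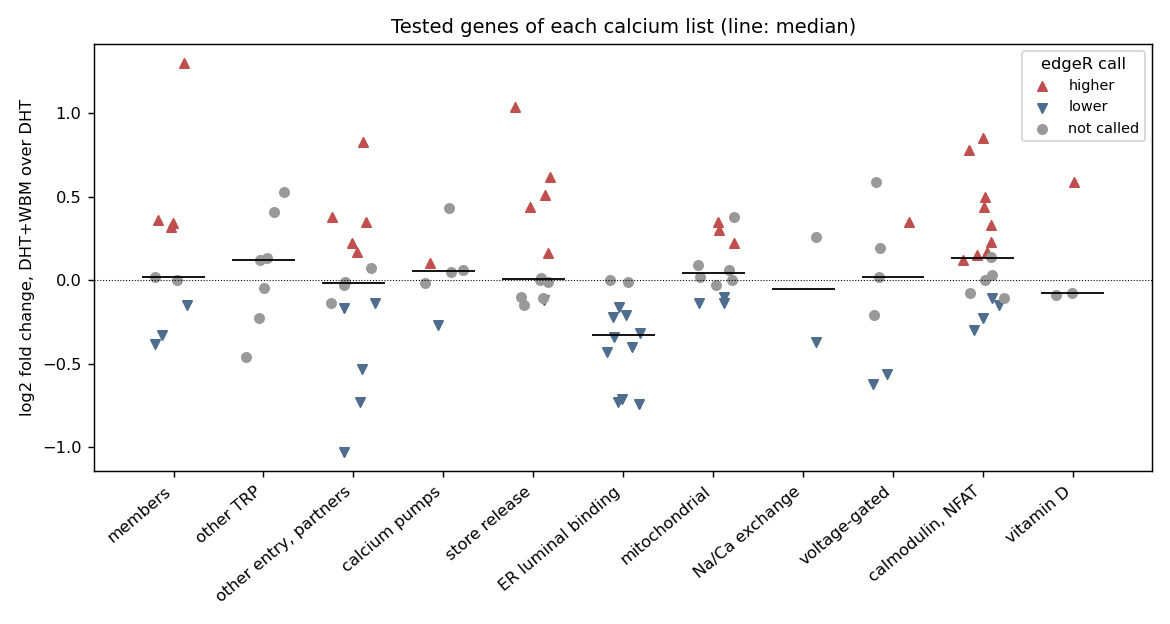
Log2 fold change of DHT+WBM over DHT for each tested gene of the 11 calcium lists (points, marked by the edgeR call) with the list's median as a line. The list headed endoplasmic reticulum luminal binding has its median at -0.33, and the 9 tested genes of the chosen group have theirs at 0.02.

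Markers were checked against the labelled cell type. The summed level of 8 luminal prostate genes was 3310 to 3450 CPM in DHT+WBM and 4440 to 4700 CPM in DHT. The lower sum was carried by KLK3, at 616 ± 6.25 CPM in DHT+WBM and 1682 ± 75.3 CPM in DHT, and KLK2, at 142 ± 4.08 CPM in DHT+WBM and 335 ± 18.96 CPM in DHT (SD, n = 3 each). KRT8, a luminal keratin gene named after its values were seen, was higher at 0.20, and KRT18, EPCAM, CDH1 and FOLH1 had log2 fold changes between -0.06 and 0.07 that did not pass the test. Of these 8 genes 3 were lower, 1 was higher and 4 did not pass the test, where 29% of all tested genes were lower and 29.2% higher. ACPP, prostatic acid phosphatase, had a log2 fold change of -1.66. The 5 basal markers summed to at most 0.716 CPM in any library, with KRT5 at 0. The 7 immune markers summed to 84.1 to 92.5 CPM in DHT+WBM and 23.7 to 26.1 CPM in DHT, nearly all of it CD68, a lysosomal gene that other cells also transcribe, at 84.5 ± 4.61 CPM in DHT+WBM and 23.0 ± 1.15 CPM in DHT. LYZ was higher at 0.45 (edgeR adjusted p = 0.0302), a call that was lost in 4 of 14 other settings: with DESeq2 and without DHT+WBM replicate 1 (log2 fold change 0.28), DHT replicate 2 or DHT replicate 3. The defining leukocyte genes PTPRC, CD3E and CD14 had at most 1 count in any library. The 8 stromal markers summed to 14.9 to 16.4 CPM in DHT+WBM and 15.8 to 18.0 CPM in DHT. COL1A1 held most of that sum, with means of 11.2 CPM in DHT+WBM and 10.5 CPM in DHT. Its groups overlapped, and its change of 0.09 on the log2 scale was not called (edgeR adjusted p = 0.363). Nor was that of ACTA2, at -0.25 (edgeR adjusted p = 0.296). COL3A1 was lower at -0.89 and COL1A2 was at 0. The 4 endothelial markers summed to at most 3.27 CPM.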

How the data were processed

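For 6 libraries the deposited table gives raw counts of reads for every gene, beside its length and location. The submitters' processing notes name HTSeq 0.6.0, STAR 2.6.0, edgeR 3.28.1, bcl2fastq 2.18.0.12 and the build hg19, without saying what each did. Which annotation and strand setting the counting used is not given in the sources used here. Libraries were grouped by their titles. Genes with a count of at least about 10 in 3 libraries (filterByExpr, minimum total 15) were tested in R 4.3.3 with edgeR 4.0.16, TMM factors of 0.979 to 1.02 and the quasi-likelihood F-test, two-sided, without covariates, with Benjamini-Hochberg adjustment across all genes. A standard error is the log2 fold change divided by the square root of F. The common coefficient of variation between libraries beyond counting noise was 3.39%. CPM are scaled by TMM, and ratios add 0.5 counts to each gene.

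Alternatives were RLE and upper-quartile factors, library totals, no filter, a filter of 1 CPM in 3 libraries, DESeq2 1.42.0, limma-voom (limma 3.58.1), a block for the replicate number, a threshold of 0.01 on the adjusted p, a pseudocount of 5 for the ratios and each library left out. The code was tested on simulated data. The 10 genes and the lists of related genes were chosen with earlier results of these data known. Of each other list, up to 3 called members with the smallest adjusted p are named, with ORAI3, STIM2, KLK3, KLK2 and TMPRSS2, and other genes were named after their values were seen. A few genes that this rule or the marker lists hold are not reported here. Promoter windows were found in RefSeq's table for 8 of the 10 genes, and 5 within 2000 bases of the annotated gene start were used.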

Additional observations from a re-analysis of the deposited data

How the results depend on the processing

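Over the 9 tested genes and 14 settings, 119 of 126 refits kept the direction of a called change and the side of the threshold, and the 7 that did not were all of TRPM4. Its log2 fold change was -0.11 with upper-quartile factors, -0.10 with library totals and -0.15 with DESeq2, none past the test, and -0.21 to -0.08 with 1 library left out. The cause was not tested. The count of changed members was 6 or 7 under every setting, and the count of all changed genes lay between 6345, at an adjusted p under 0.01, and 8109. Whether the replicate numbers pair the libraries is not known. Same-numbered deviations correlated at 0.05, 0.04 and 0.02, and with 3 libraries a group such small values cannot decide it. DHT+WBM replicates 1 and 2 correlated best with their own number and replicate 3 with another. With the replicate block, 8109 genes and 7 members were called.

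Leaving out 1 library moved the difference in the log2 ratio of ORAI2 to ORAI1 between -0.07 and 0.03, and that of TRPV6 to TRPM8 between -0.11 and 0.02, so neither has a stable sign. Of the other named genes, 414 of 434 refits kept their call, and of the counts of the other lists 127 of 140 stayed within 1.5 times in total. The counts by direction moved more for the mitochondrial, store release, pump, voltage-gated and calmodulin lists. The other TRP list went to 1 or 2 calls in 8 settings, the pumps to 1 with DESeq2 or without DHT replicate 3, the voltage-gated subunits to 1 with DESeq2, the sodium-calcium exchangers to 2 without a filter and the vitamin D list to 2 without DHT replicate 2. Depth limits TRPC1, at 14 to 49 counts per library, and TRPV2, at 1 to 3. Intervals cover the spread between 3 libraries a group.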
